A study of Mus musculus with 5 samples.

Results

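The genes described here encode 10 proteins that fold, hydroxylate and cross-link collagen, chosen by their names from a table of 28666 listed genes: the prolyl hydroxylase subunits P4ha1, P4ha2 and P4ha3, the lysyl hydroxylases Plod1, Plod2 and Plod3, the chaperones Serpinh1, Fkbp10 and Fkbp14, and the lysyl oxidase Lox. All 10 names were found once each, and all 10 passed the filter on low counts. RNA of whole uteri of pseudopregnant ICR females aged 6 to 8 weeks was sequenced in 5 libraries. Vasectomized C57BL/6 males, which deliver seminal plasma (SP) but no sperm, had been caged with them. These males were 12 to 18 months old in the aged-SP group (n = 2, replicates 1 and 4) and 12 to 14 weeks old in the young-SP group (n = 3, replicates 1, 2 and 4). The methods of the study place collection at 3.0 dpc (days post coitum), and the series record gives 3.5 days after caging. In both groups the uterus held no embryo. The labels do not say whether each library is 1 female, so that the p-values measure the spread between libraries, which may be technical. The study reports leaving out a young-SP sample as an outlier, and that sample was not analysed here. It also states triplicate biological replicates, yet by the labels aged-SP is the smaller group. How many libraries of each group were sequenced is not given, so this difference stays unexplained. Every comparison of the groups here rests on the labels.

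Collagen is made in the endoplasmic reticulum, where prolines of the chain are hydroxylated so that 3 chains can wind into a stable triple helix, lysines are hydroxylated as anchors for sugars and cross-links, and chaperones hold the chains until they are secreted. Outside the cell, lysyl oxidase oxidizes lysines, and the products join neighbouring molecules into fibrils. In the uterus most fibrillar collagen is laid down by stromal fibroblasts and smooth muscle, and the stromal matrix is remodelled around implantation.

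The 5 libraries held between 15071914 and 16728601 counts. Levels are given in CPM, that is, counts relative to the TMM-scaled total of a library, and means with their SD (n = 2 for aged-SP, n = 3 for young-SP). The log2 fold change (log2FC) sets aged-SP over young-SP, so negative values are lower with older males, and SE is its standard error. Unless another tool is named, p comes from edgeR's quasi-likelihood test and is adjusted by the Benjamini-Hochberg method over all 17013 tested genes. To be called, a gene needed both an adjusted p below 0.05 and a log2FC beyond 1 in size. The names were chosen by a proposal made with these fold changes known, so the counts and medians over the 10 genes are a description and support nothing. Beyond counting error, a typical gene varied between libraries of a group by 25.1% of its mean. Over all tested genes young-SP replicate 1 lay nearer to aged-SP replicate 4 (root mean square difference 0.695 in log2 CPM) than to young-SP replicates 2 and 4 (0.762 and 0.703). Over the 10 genes it lay at 0.226 and 0.510 from young-SP replicates 2 and 4 and at 0.763 and 0.776 from the aged-SP replicates. Because these genes were chosen with the fold changes known, their distances tend to part the groups and support nothing about that library. The uterine genes Esr1, Pgr, Hoxa10, Hoxa11, Wnt7a and Msx1 were present in every library, with a summed level of 1271 to 1389 CPM in aged-SP and 1411 to 1472 CPM in young-SP libraries, which did not overlap.

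The 10 genes did not differ in 1 direction. The chaperone Fkbp14 fell, to a level 2.92-fold below that of the young-SP group, Serpinh1, Fkbp10 and P4ha2 were lower in both aged-SP libraries, and Plod1 and Lox were higher in both. Of the 10 genes, 1 was called (Fkbp14, lower), where 0.147% of all tested genes were called, 0.0647% lower and 0.0823% higher. At an unadjusted p under 0.05 there were 7 of the 10, 5 lower and 2 higher, against 19.0% of all tested genes (9.36% lower and 9.62% higher). The estimate was lower in 7 of the 10, against 49.1%. For 7 of the 10, the ranges of the groups were apart, 5 lower and 2 higher in the aged-SP group, where 38.8% of all tested genes did not overlap (19.3% lower and 19.5% higher). The median log2FC was -0.47 over the 10 genes and 0.0072 over all tested genes. DESeq2's Wald test gave an adjusted p under 0.05 to 5 of the 10 (4 lower and 1 higher), against 7.58% of the genes with an adjusted p (3.89% lower and 3.69% higher), and 1 passed both thresholds, against 3.60%. Without young-SP replicate 1, edgeR gave 4 of the 10 genes an adjusted p under 0.05, against 4.81% of the genes tested in that fit, and 1 was called, against 3.45%.

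**Figure D1:**
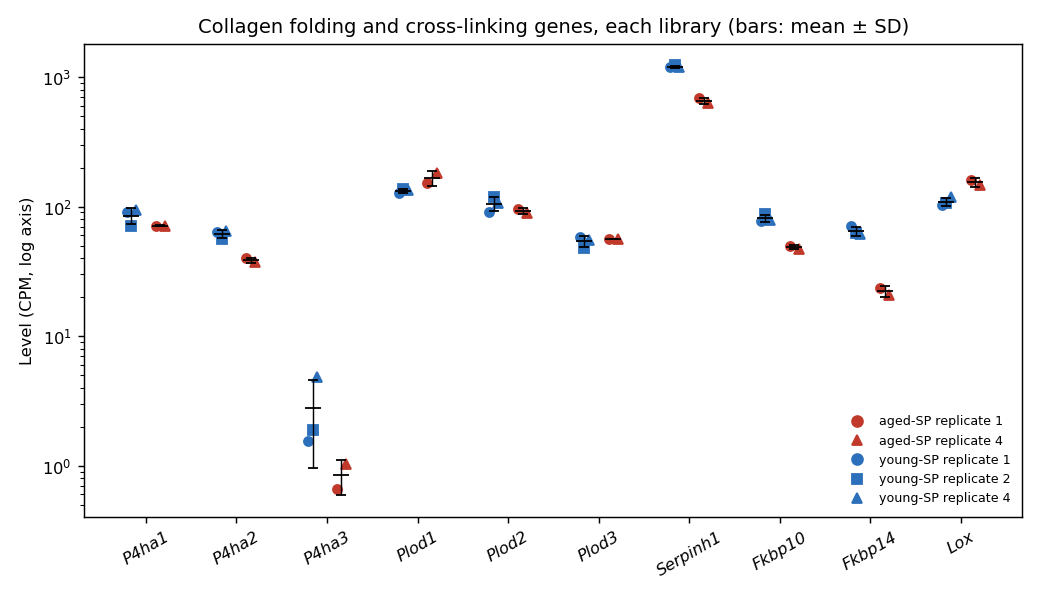
Level of each of the 10 genes in each library, in CPM on a log axis, with young-SP libraries in blue and aged-SP libraries in red, the marker shape giving the replicate and black bars the mean and SD of a group (n = 3 and n = 2). Fkbp14 lay between 20.7 and 23.6 CPM in the aged-SP libraries and between 61.1 and 70.7 CPM in the young-SP libraries, while the groups overlapped for P4ha1, Plod2 and Plod3.

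Serpinh1 (ENSMUSG00000070436), the collagen-specific chaperone that binds the triple helix and accompanies it out of the endoplasmic reticulum, lies on the minus strand of chromosome 7 (99345376 to 99353239, GRCm38). It had 683 and 634 CPM in aged-SP replicates 1 and 4, and 1186, 1226 and 1192 CPM in young-SP replicates 1, 2 and 4. The 3 young-SP libraries differed little from one another (SD 1.83% of the mean), and both aged-SP libraries lay well below them. The log2FC of -0.87 (SE 0.089, adjusted p = 0.0552) missed both thresholds. The adjusted p was 5.76e-15 in DESeq2 and lay between 0.0205 and 0.240 in the other 12 alternatives, among them 0.0244 without young-SP replicate 1 and 0.1485 with the replicate block. Leaving out aged-SP replicate 1 or 4 gave 0.240 and 0.114, and leaving out young-SP replicate 2 or 4 gave 0.209 and 0.214.

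Fkbp14 (ENSMUSG00000038074), a prolyl isomerase of the endoplasmic reticulum that binds collagen chains and whose loss causes a connective tissue disorder, lies on the minus strand of chromosome 6 (54577604 to 54597308). Its level was 23.6 and 20.7 CPM in aged-SP replicates 1 and 4, and 70.7, 62.1 and 61.1 CPM in young-SP replicates 1, 2 and 4. The gap between the groups was wider than the spread within either. With means of 22.1 ± 2.06 CPM for aged-SP (SD, n = 2) and 64.7 ± 5.30 CPM for young-SP (SD, n = 3), the log2FC was -1.55 (SE 0.12, adjusted p = 0.0430). With 1 library left out, the log2FC lay between -1.65 and -1.46. The adjusted p was then 0.0134 without young-SP replicate 1, and the call was lost without aged-SP replicate 1 (adjusted p = 0.181), aged-SP replicate 4 (0.0823), young-SP replicate 2 (0.186) or young-SP replicate 4 (0.214), all in edgeR. Of the exonic bases of Fkbp14, 5.01% are also exons of Plekha8 on the opposite strand, and the kit as named does not mark strand, so reads there cannot be told apart. Plekha8 itself had means of 27.5 CPM for aged-SP and 28.3 CPM for young-SP, with a log2FC of -0.045 (adjusted p = 0.891).

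Fkbp10 (ENSMUSG00000001555), another prolyl isomerase, which works with Serpinh1 and is needed for the hydroxylation of lysines at the chain ends, lies on the plus strand of chromosome 11 (100415697 to 100424824). It had 49.8 and 47.3 CPM in aged-SP replicates 1 and 4, and 77.3, 87.5 and 78.2 CPM in young-SP replicates 1, 2 and 4. The groups did not overlap. With a log2FC of -0.74 (SE 0.099), the adjusted p was 0.0734 in edgeR and from 6.03e-06 (DESeq2) to 0.254 (without aged-SP replicate 1) over the alternatives. Within a library, the per-kilobase level of Fkbp14 was 0.335 and 0.309 of that of Fkbp10 in the aged-SP group and 0.647, 0.502 and 0.552 of it in the young-SP group, a ratio that does not depend on the scaling of libraries.

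The bases before their transcription starts are shown, for the most abundant gene and the called one, with those of Plod1, which was higher, beside them. Each line gives the 250 bases before the start on the strand of the gene, 5′ to 3′, from RefSeq on GRCm38.p6, at chr7:99353240-99353489 for Serpinh1, chr6:54597345-54597594 for Fkbp14 and chr4:147936777-147937026 for Plod1, all on the minus strand. Capitals mark ACGTG, the core bound by hypoxia-inducible factors, on either strand.
Serpinh1: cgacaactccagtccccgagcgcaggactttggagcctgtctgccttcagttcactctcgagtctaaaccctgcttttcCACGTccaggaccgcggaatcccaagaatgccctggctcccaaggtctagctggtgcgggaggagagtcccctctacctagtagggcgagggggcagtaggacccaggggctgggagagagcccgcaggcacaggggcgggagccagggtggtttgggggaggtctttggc
Fkbp14: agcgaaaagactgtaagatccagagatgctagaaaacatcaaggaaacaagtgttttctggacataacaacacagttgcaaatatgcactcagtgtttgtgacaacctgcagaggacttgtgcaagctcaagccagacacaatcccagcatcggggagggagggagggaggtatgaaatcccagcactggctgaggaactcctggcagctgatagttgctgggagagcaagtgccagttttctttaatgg
Plod1: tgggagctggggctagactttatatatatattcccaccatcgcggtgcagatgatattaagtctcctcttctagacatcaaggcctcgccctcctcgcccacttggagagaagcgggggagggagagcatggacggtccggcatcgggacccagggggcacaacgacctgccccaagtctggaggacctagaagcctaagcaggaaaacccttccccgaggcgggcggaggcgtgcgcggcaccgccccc
The table of promoters held 7 of the 10 genes, each counted by the window nearest to its annotated 5′ end, and Plod2, Lox and Fkbp10 had no entry. ACGTG was found before the start of 4 of the 7 (P4ha1, P4ha2, Plod3 and Serpinh1), against 16.6% of 32851 windows of the same length, and in Serpinh1 it began 171 bases before the start. The GC box GGGCGG was found in 5 of the 7 (P4ha1, P4ha2, P4ha3, Plod1 and Serpinh1) and in 32.7% of all windows. CCACG, which can overlap ACGTG as in CCACGTG, was found in 3 of the 7 (28.3% of windows). The CCAAT box CCAAT (33.8%), the TATA motif TATAAA (12.4%) and the heat shock core TTCNNGAA (7.17%) were each found in 1 of the 7, in Plod3, Plod1 and P4ha2. The TATAAA match of Plod1 began 232 bases before the start and lay on the opposite strand, so it is a match of letters only. The cyclic AMP response core TGACGT (6.47% of windows) and the full endoplasmic reticulum stress element (0.113%) were found in 0 of the 7. None of the 8 motifs was in the window of Fkbp14 shown here, which is the nearer of its windows to the annotated 5′ end (36 bases away). RefSeq gives Fkbp14 another start, with a window at chr6:54593175-54593424 that is not shown and lies 4134 bases from that end. That window holds CCAAT at 2 places and none of the other motifs. Which start the uterus uses was not tested. For P4ha2 the RefSeq start lies 829 bases inside the gene as the deposited table gives it.

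Prolyl hydroxylation of collagen is carried out by a tetramer in which the P4ha subunits carry the active site and P4hb holds them in solution. P4ha1 (chromosome 10, 59323296 to 59373304, plus strand) is the main form in most cells, and it had 70.8 and 71.3 CPM in aged-SP replicates 1 and 4 and 90.2, 71.2 and 94.3 CPM in young-SP replicates 1, 2 and 4. The groups overlapped, since young-SP replicate 2 lay with the aged-SP libraries. The log2FC was -0.26, with a 95% confidence interval of -0.62 to 0.093 (adjusted p = 0.379). P4ha2 (chromosome 11, 54100095 to 54131665, plus strand), abundant in cartilage and bone, was at 39.8 and 37.3 CPM in the aged-SP group and 63.7, 56.5 and 64.6 CPM in the young-SP group. Its groups did not overlap, and a log2FC of -0.68 (SE 0.10) came with an adjusted p of 0.0754 in edgeR and of 0.000247 (DESeq2) to 0.262 (without aged-SP replicate 1) over the alternatives.

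P4ha3 (chromosome 7, 100285520 to 100319699, plus strand), the rarest subunit, lies 932281 bases from Serpinh1. It had 11 and 16 counts in aged-SP replicates 1 and 4, and 25, 32 and 73 counts in young-SP replicates 1, 2 and 4. The groups did not overlap, but young-SP replicate 4 held more than the other two young-SP libraries together. The log2FC was -1.71 (SE 0.64, adjusted p = 0.240), and without young-SP replicate 4 it was -1.04. In that library the adipose genes Adipoq, Plin1 and Cidec had 12, 7 and 8 counts, against 0 to 2 in each of the other 4 libraries, and their part in the P4ha3 value was not tested. Of the summed per-kilobase level of the 3 subunits, P4ha1 made up 72.3% and 73.3% in the aged-SP group and 64.2% to 67.2% in the young-SP group, P4ha2 25.3% to 26.8% and 29.7% to 33.6%, and P4ha3 0.891% to 1.38% and 1.53% to 4.47%.

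Plod1 (chromosome 4, 147909753 to 147936767, minus strand), which hydroxylates lysines within the helix, had 152 and 183 CPM in aged-SP replicates 1 and 4 and 126, 136 and 133 CPM in young-SP replicates 1, 2 and 4. Both aged-SP libraries lay above all young-SP libraries, by a log2FC of 0.34 (SE 0.11, adjusted p = 0.199). Plod2 (chromosome 9, 92542223 to 92608428, plus strand), which hydroxylates lysines of the chain ends and so sets the kind of cross-link, had 96.3 and 88.8 CPM in the aged-SP group and 91.4, 118 and 106 CPM in the young-SP group. The groups overlapped, and the log2FC was -0.18 (95% confidence interval -0.51 to 0.15, adjusted p = 0.493). Plod3 (chromosome 5, 136987019 to 136996648, plus strand), which also attaches sugars to hydroxylysine, was the most alike in the 2 groups, at 56.5 CPM in both aged-SP libraries and 58.4, 47.8 and 55.4 CPM in the young-SP libraries. Its log2FC was 0.069 (95% confidence interval -0.21 to 0.35, adjusted p = 0.776), so a difference of up to 0.35 on the log2 scale remained possible. Plod1 made up 42.4% and 48.3% of the summed per-kilobase level of the 3 hydroxylases in the aged-SP group and 38.2% to 38.5% in the young-SP group. The share of Plod2 was 33.85% and 29.4% against 34.9% to 41.6%, and that of Plod3 overlapped (22.3% to 23.7% against 20.1% to 26.6%). These shares restate the levels of the 3 genes and add nothing to them. Exons of other genes on the opposite strand cover part of Plod3 (11.9% of its exonic bases, nearly all Znhit1), Fkbp10 (6.58%, Nt5c3b) and Plod2 (6.42%, Gm38391). The log2FC values of these 3 overlapping genes were -0.071, -0.072 and -0.46, with an adjusted p between 0.436 and 0.841 in edgeR.

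Lox (chromosome 18, 52516069 to 52529867, minus strand), the copper enzyme that starts the cross-linking of collagen and elastin outside the cell, had the largest positive log2FC of the 10 genes. It had 162 and 146 CPM in aged-SP replicates 1 and 4 and 102, 106 and 118 CPM in young-SP replicates 1, 2 and 4. The groups did not overlap. The log2FC was 0.50 (SE 0.10, 95% confidence interval 0.24 to 0.76), with an adjusted p of 0.107 in edgeR and of 0.0118 (DESeq2) to 0.347 (without aged-SP replicate 1) over the alternatives. The per-kilobase level of Lox was 0.120 and 0.117 of that of Serpinh1 in the aged-SP libraries, and 0.0438, 0.0439 and 0.0504 of it in the young-SP libraries. Both genes differed without overlap and in opposite directions, so the groups had to be apart in this ratio, which adds nothing to the values of each gene.

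**Figure D2:**
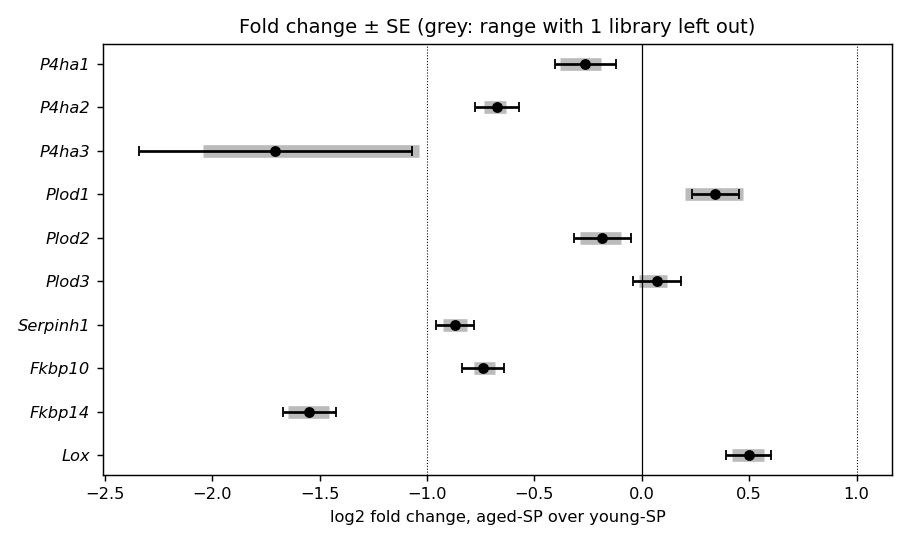
Log2 fold change of each gene, aged-SP over young-SP, with its standard error (bars) and the range of estimates when 1 of the 5 libraries was left out (grey). Only P4ha3 and Fkbp14 lie beyond the dotted lines at -1 and 1. Lox, Plod1 and Plod3 (0.069) lie on the positive side, and P4ha3 has the widest error (0.64).

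Per kilobase of gene length, Serpinh1 stood far above the others, between 259 and 502 CPM per kilobase over the 5 libraries. Next by median were Fkbp10 (26.3), Lox (24.6), Plod1 (20.1), Plod2 (17.9) and P4ha1 (17.3), and each of these overlapped its neighbour in the order over the range of the libraries. Fkbp14 (14.7) lay below P4ha1 in all 5 libraries, and Plod3 (12.5) overlapped Fkbp14. P4ha2 (9.06) lay below Plod3 with no overlap, but its range overlapped that of Fkbp14, which was the lower of the pair in both aged-SP libraries (5.68 and 4.98 against 6.38 and 5.98). P4ha3 (0.499) lay below all the others with no overlap. The order of Fkbp14 and Plod3 turned with the group: Plod3 was at 12.5 in both aged-SP libraries, above Fkbp14, and in the young-SP libraries at 10.6 to 12.9, below Fkbp14 at 14.7 to 17.1. Fkbp10 was above Lox in the 3 young-SP libraries and below it in both aged-SP libraries.

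The collagen chains are the substrates of these enzymes. Of 16 genes of collagen chains, 15 were tested and 1 was called, where 0.147% of all tested genes were. Of the 15, 14 estimates were lower (49.1% of all tested genes). At an unadjusted p under 0.05 there were 11 lower and 1 higher, where 9.36% and 9.62% of all tested genes lay. DESeq2 called 4, all lower, where it called 3.60% of the genes with an adjusted p in either direction. Their median log2FC was -0.82. The called gene was Col11a1, a chain of a minor fibrillar collagen, which fell from 39.4 ± 6.52 CPM in young-SP (SD, n = 3) to 10.03 ± 0.260 CPM in aged-SP uteri (SD, n = 2), a log2FC of -1.97 (adjusted p = 0.0484). Col6a3, of the beaded filaments, and Col12a1, which coats fibrils, followed by p, at -0.83 and -1.33 (adjusted p = 0.0734 for both). The summed per-kilobase level of Col1a1, Col1a2 and Col3a1, the chains of the main fibrils, was 1004 and 1110 in aged-SP replicates 1 and 4 and 1627, 2031 and 1992 in young-SP replicates 1, 2 and 4.

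The 10 genes were also set against these 3 chains in the same library, a measure chosen after the values had been seen. The ratios restate the levels of each gene and of the chains given above, so they add no support of their own. Relative to 1000 units of the 3 chains, Serpinh1 was at 278 and 234 in the aged-SP group and at 298, 247 and 245 in the young-SP group, so that the groups overlapped. They also overlapped for Fkbp10 (14.5 to 16.9 in the aged-SP group and 13.4 to 16.2 in the young-SP group) and for P4ha2 (5.38 to 6.35 and 4.46 to 6.27). Fkbp14 stayed lower, at 5.66 and 4.49 against 10.5, 7.37 and 7.39, as did P4ha3 by a narrow margin (0.294 at most in the aged-SP group, 0.297 at least in the young-SP group). Among all tested genes 1.82% were lower without overlap by this measure. The other 5 genes were higher without overlap in the aged-SP group, as were 78.2% of all tested genes. Lox was at 33.4 and 27.3 against 10.9 to 13.1, Plod1 at 22.3 and 24.4 against 9.89 to 11.5, Plod2 at 17.8 and 14.8 against 9.87 to 10.8, Plod3 at 12.5 and 11.3 against 5.21 to 7.94, and P4ha1 at 17.1 and 15.6 against 8.53 to 13.5.

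**Figure D3:**
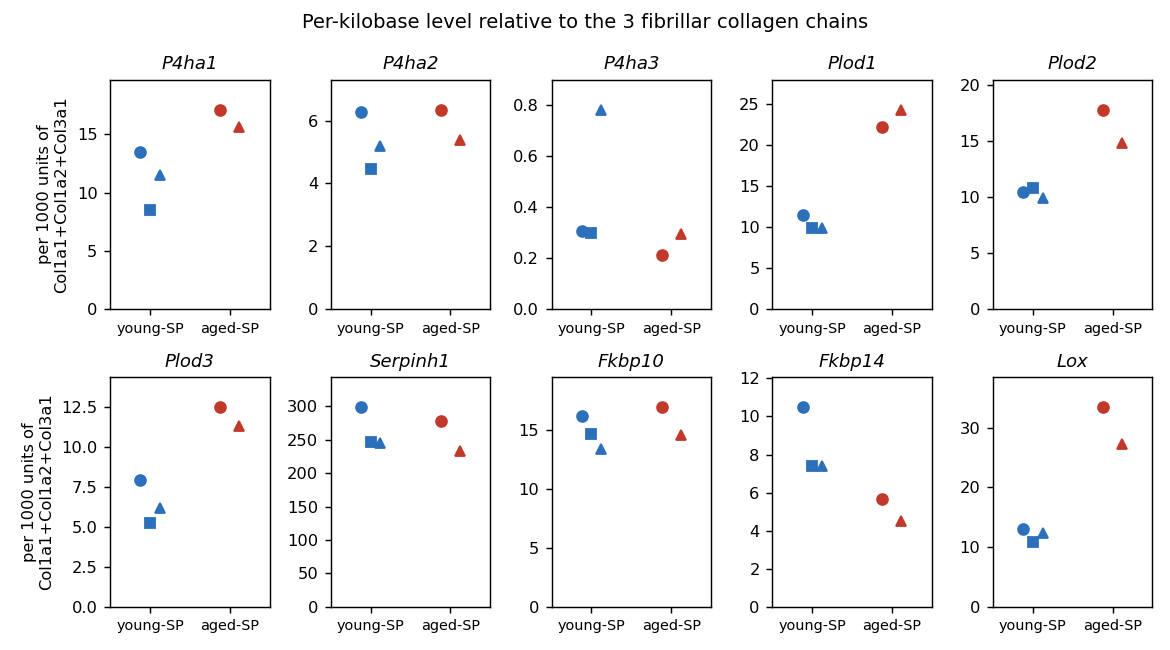
Per-kilobase level of each gene per 1000 units of the summed per-kilobase level of Col1a1, Col1a2 and Col3a1 in the same library, by group (young-SP blue, aged-SP red, marker shape for the replicate), each panel with its own axis from 0. The groups overlap for Serpinh1, Fkbp10 and P4ha2, while Lox is at 27.3 to 33.4 in the aged-SP group and 10.9 to 13.1 in the young-SP group.

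Of 29 other genes of collagen processing, all were tested and 0 were called by edgeR. Of the 29, at an unadjusted p under 0.05, there were 12 lower and 2 higher, where 9.36% and 9.62% of all tested genes lay. DESeq2 called 3, all lower, against 3.60% of the genes with an adjusted p in either direction. Their median log2FC was -0.22. The 3 with the smallest p were Adamts14, which removes the amino-terminal propeptide of fibrillar collagens, at 7.05 ± 1.07 against 20.4 ± 0.880 CPM (aged-SP against young-SP, log2FC -1.53, adjusted p = 0.0566), Crtap (log2FC -1.06, adjusted p = 0.0642) and P3h1 (log2FC -0.81, adjusted p = 0.0734). Crtap and P3h1 form the complex that hydroxylates a proline in another position of the ring, together with the isomerase Ppib. Ppib itself was at 140.0 ± 13.9 against 140.7 ± 7.82 CPM (log2FC -0.0070, adjusted p = 0.979). P4hb, the partner of the P4ha subunits, was at 688 ± 214 against 642 ± 69.97 CPM (adjusted p = 0.833). Both were singled out after their values were seen, as the partners of genes described above.

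**Figure D4:**
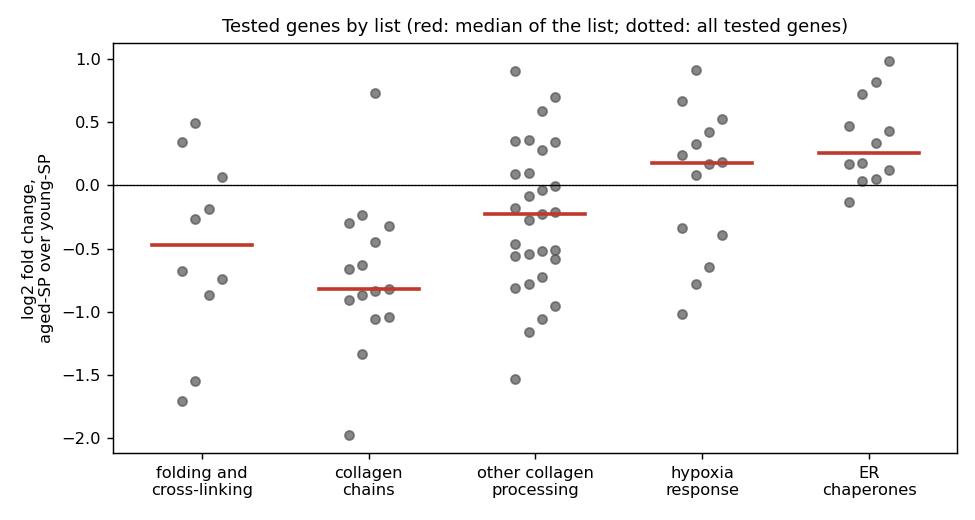
Log2 fold change, aged-SP over young-SP, of each tested gene of 5 lists (points), with the median of the list in red and that of all tested genes as a dotted line close to 0. The medians are -0.47 for the 10 folding and cross-linking genes, -0.82 for collagen chains, -0.22 for other collagen processing, 0.18 for the hypoxia response and 0.25 for chaperones of the endoplasmic reticulum.

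In RNA of whole uteri, fewer collagen-producing cells and less RNA per cell cannot be told apart. The summed level of 6 stromal markers was 2912 to 3654 CPM in the aged-SP group and 2872 to 4213 CPM in the young-SP group. Of the 6 estimates, 4 were lower and 2 higher, where 49.1% of all tested genes were lower. The 3 markers with the smallest p differed in direction. Pdgfra had a log2FC of -0.65 (adjusted p = 0.121 in edgeR and 0.00476 in DESeq2). Hand2 had one of -0.28 (0.230 and 0.273), and for both genes the groups did not overlap. Wnt4 had one of 1.502 (0.245 and 0.0810), but its groups overlapped. It was at 9.79 and 27.8 CPM in aged-SP replicates 1 and 4 and at 4.21 to 10.5 CPM in the young-SP libraries. Dcn, the most abundant, had a log2FC of 0.074 (adjusted p = 0.881 in edgeR). The summed levels of 6 markers each of smooth muscle (8502 to 10830 against 8954 to 13530 CPM), epithelium (1149 to 1196 against 745 to 1476 CPM), endothelium (605 to 606 against 449 to 787 CPM) and leukocytes (344 to 387 against 320 to 468 CPM) overlapped between the groups. So did those of vagina and cervix (1.92 to 4.90 against 2.19 to 3.82 CPM), ovary (36.0 to 70.9 against 21.8 to 42.5 CPM) and oviduct (112 to 151 against 58.0 to 259 CPM). For epithelium the overlap came from young-SP replicate 1 alone, at 1476 CPM, while young-SP replicates 2 and 4 were at 745 and 920 CPM. Adipose markers were at 0 in both aged-SP libraries and at 0.118 to 1.94 CPM in the young-SP libraries. The skeletal muscle list was at 72.7 to 90.6 CPM against 163 to 240.4 CPM, nearly all of it from Acta1, whose log2FC was -1.46 (adjusted p = 0.0734). Of the 48 tested markers in all these lists 0 were called by edgeR. At an unadjusted p under 0.05 there were 4 higher and 6 lower, where 9.62% and 9.36% of all tested genes lay. DESeq2 called 1 higher and 1 lower, against 3.60% of the genes with an adjusted p in either direction. The part of cell composition in the values of the 10 genes was not tested.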

How the data were processed

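RNA of whole uteri was extracted with TRIzol, and libraries were made with the NEBNext Ultra RNA kit. The authors aligned the filtered reads with HISAT2 2.1.0 and gave raw counts per gene, as deposited, and the submitters' processing notes also name Bowtie2 2.2.3 and HTSeq 0.6.0. From those counts the authors made FPKM (scaled by gene length and total count), which gave the gene lengths here. The deposited table also holds the authors' fold changes and p-values, which were not used, and 0 columns of sample values were left unused. The build is not given in the sources used here: 26998 of 28666 gene positions equal those of GENCODE M21 on GRCm38, while that of Lox differs.

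Groups and replicate numbers came from the sample labels. The members and lists were chosen with earlier results of these data known. Genes named were the 10 members, the called genes and the 3 with the smallest p of each of the 4 lists of collagen processing, collagen chains, hypoxia response and chaperones, and the 3 genes with the profile nearest to that of Fkbp14. Marker genes named singly were chosen after their values were seen. Counts were filtered with filterByExpr, scaled by TMM (factors 0.990 to 1.02) and tested two-sided with edgeR 4.0.16 (glmQLFit, glmQLFTest) in R 4.3.3. Log2 CPM had a prior count of 2. Standard errors are the absolute log2 fold change over the root of the F statistic. The tests were run on simulated counts with known changes. Alternatives were DESeq2 1.42.0, limma-voom 3.58.1, 2 other scalings, 2 other filters, robust = TRUE, a replicate block, each library left out and the adjusted p alone. Totals of 15071914 to 16728601 counts limit precision for P4ha3, and reads carried no molecular identifiers. Overlaps and shared positions were read from GENCODE M21 and promoters from RefSeq (Python 3.11.15).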

Additional observations from a re-analysis of the deposited data

How the results depend on the processing

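The 10 genes were fitted under 13 alternatives, and 123 of the 130 fold changes kept their direction and whether they were called. The adjusted p alone crossed 0.05 more often, coming under it in 11 of the 130 and leaving it in 5. The 11 came from DESeq2, limma-voom, the fit with no filter on low counts and the fit without young-SP replicate 1. Over all genes, 7.58% had an adjusted p under 0.05 in DESeq2 and 4.81% in edgeR without young-SP replicate 1. In the main fit, 26 of the 17013 tested genes did. Plod3 turned to -0.0094 with the replicate block and to -0.012 without young-SP replicate 2, and ranged from -0.012 to 0.12 with 1 library left out. Fkbp14 lost its call, but not its direction, in 5 fits: the block (adjusted p = 0.130) and the fits without aged-SP replicate 1 or 4 or without young-SP replicate 2 or 4. The number of members called was 0 with the block and 0 to 1 with 1 library left out. The median fold change (log2) of the members was -0.53 with the block and lay between -0.53 and -0.42 with 1 library left out. Over all tested genes the number called was 25, and it was 632 with DESeq2, 203 with no filter on low counts, 2 with the block and 1 to 578 with 1 library left out, the highest without young-SP replicate 1. Of the collagen-processing genes, 3 were called with DESeq2, 2 with no filter and 0 to 3 with 1 library left out, and their median lay between -0.30 and -0.18. Where 1 aged-SP library was left, it was assumed to vary like the young-SP libraries. The cause of these changes was not tested. With the deposited FPKM, 8 of the 10 genes kept their rank by level, and P4ha1 and Plod2 exchanged places. Only the numbers 1 and 4 are shared by the groups. The deviations of same-numbered libraries from their group means correlated at 0.152 and 0.136 over genes, and those of differently numbered libraries at -0.152 to 0.0757. With n = 2 the deviations of the aged-SP libraries mirror each other, so these values cannot decide whether same-numbered libraries are paired. The labels give no more than the shared number. Besides that of Fkbp14, the block changed no call of the members. No scaling moved the median of all tested genes by more than 0.1.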

Other observations

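P4ha1, P4ha2, Plod2 and Lox are known targets of hypoxia-inducible factors, and a list of 14 other genes of the hypoxia response had 0 called genes in edgeR. At an unadjusted p under 0.05 in edgeR there were 2 higher and 3 lower, where 9.62% and 9.36% of all tested genes lay. DESeq2 called 0 higher and 1 lower, against 3.60% of the genes with an adjusted p in either direction. Its median log2FC was 0.18. Pdk1, which restrains the entry of pyruvate into mitochondria, had a mean of 12.3 ± 0.752 CPM in aged-SP (SD, n = 2) against 24.8 ± 1.98 CPM in young-SP uteri (SD, n = 3), a log2FC of -1.01 (adjusted p = 0.0734). Bnip3, a mitophagy receptor, had a log2FC of 0.67 (adjusted p = 0.108), and the oxygen sensor Egln1 one of -0.39 (adjusted p = 0.153).

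Of 12 general chaperones and stress genes of the endoplasmic reticulum 0 were called by edgeR and 0 by DESeq2. Of the 12, 11 estimates were higher and 1 was lower, where 49.1% of all tested genes were lower. At an unadjusted p under 0.05 in edgeR there were 2, both higher, where 9.62% of all tested genes were higher. The median log2FC was 0.25. All of these genes but Ddit3 had a higher level in aged-SP replicate 1 than in aged-SP replicate 4. Dnajb9, a co-chaperone induced by unfolded proteins, had a log2FC of 0.82 (adjusted p = 0.150), and Xbp1 and Ddit3, transcription factors of the same response, had 0.98 (adjusted p = 0.257) and 0.43 (adjusted p = 0.336). Hspa5, the main chaperone of the compartment, chosen after its values were seen, had means of 782 ± 401 CPM (aged-SP) against 720 ± 214 CPM (young-SP), a spread larger than the difference. Its level was 1066 and 498 CPM in aged-SP replicates 1 and 4, and 965, 577 and 617 CPM in young-SP replicates 1, 2 and 4.

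Among the tested genes, those with the profile over the 5 libraries most like that of Fkbp14 were the long noncoding Gm12860, Tmem26 and Epha3, at a root mean square distance of 0.0705, 0.131 and 0.131 in centred log2 CPM. Because these genes were picked by their profile, fold changes near that of Fkbp14 follow from the choice. Tmem26 was called (log2FC -1.50, adjusted p = 0.0484 in edgeR), and Epha3 was not (log2FC -1.57, adjusted p = 0.0676). Gm12860 was near the floor, at 0.484 and 0.448 CPM in aged-SP replicates 1 and 4 and 1.36 to 1.63 CPM in the young-SP libraries. Its adjusted p was 0.1045 in edgeR, and at such levels the prior count of 2 shrinks the differences that enter the distance. Among the other members Serpinh1 was the nearest (0.341) and Lox the farthest (1.01). Plod1 was the member with called genes within 1000000 bases: the zinc finger genes Zfp984, Zfp979 and Zfp991 lie 99965, 267240 and 729174 bases from it, with log2 fold changes of 3.00, 6.95 and 3.57, and the part of this position in the Plod1 value was not tested.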
